A study of Homo sapiens with 2 samples.

Results

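Matrix-degrading proteases and the proteins that hold them in check were followed in MDA-MB-231, a human cell line from a triple-negative breast cancer that is known for its invasive growth. The group was fixed by name and held 9 genes: the collagenases MMP1 and MMP14, the urokinase system PLAU and PLAUR, the lysosomal proteases CTSB and CTSL, and the metalloproteinase inhibitors TIMP1, TIMP2 and TIMP3. All 9 were listed, among 12918 genes in all. The study has 2 libraries of total RNA, 1 per group, from cells grown in L15 medium with serum and taken at 48 h. In the silenced group, cells were transfected with a Smart Silencer (a ready-made blend of siRNA and antisense oligonucleotides) against THAP7-AS1, a long noncoding RNA gene. In the control group the same line received the negative control si-NC, so both groups share the line and the transfection, and no untransfected cells are part of the comparison.

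The deposited columns are headed si-nc and si-v. By elimination, since the other column bears the control's name, si-v was read as the silenced library, and values are given below as those with si-NC and those with si-v. THAP7-AS1 itself could not be followed, as 0 transcripts of it were listed, so the silencing was not checked and every direction depends on that assignment. Values are FPKM (fragments per kilobase of transcript, set relative to all mapped fragments), summed over the listed transcripts of a gene, and a log2 ratio is log2((si-v + 1)/(control + 1)). The depth was about 7830000 fragments on listed transcripts with si-NC and 8320000 with si-v. With 1 library per group there is no replicate check and no p-value, and each difference describes these 2 libraries. Intervals below are exact 95% Clopper-Pearson intervals on estimated fragments and cover counting error only, without the variation between cultures. They belong to the log2 ratio of fragments, without the added 1, which can differ from the log2 ratio of FPKM printed beside them. The line's own markers were high in both libraries, with VIM at 344 FPKM with si-NC and 373 with si-v and KRT8 at 294 and 305. Of genes held to be low in this line, ESR1 was listed at 0 in both and PGR was not listed. FOXA1 stood at 0.228 and 0.359 FPKM and CDH1 at 0.084 and 0.122, but GATA3 passed 1 FPKM, at 2.65 and 2.18.

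Invading cells cut a path through collagen and basement membrane with proteases that work at the cell surface or after secretion. MMP14 is anchored in the membrane and, bound to TIMP2, activates MMP2, so TIMP2 is both an inhibitor and a partner of MMP14. Urokinase, the product of PLAU, binds its receptor PLAUR at the surface and turns plasminogen into plasmin, which degrades fibrin and activates other proteases. Cathepsins B and L are cysteine proteases of the lysosome that tumor cells can also release, and cystatins inhibit them.

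Several of these genes were listed as more than 1 transcript, and in 3 of them (CTSL, TIMP2 and PLAUR) the main transcripts differed between the libraries by unlike amounts. The sequences below tell those transcripts apart. They are coding bases from GENCODE release 29, written 5′ to 3′ on the gene's strand. Positions are on GRCh38, whereas the deposited values were made on hg19 and came without positions. The first sequence shows where CTSL-202 leaves the full-length transcripts: it starts with the last 12 bases of the shared exon 5, and the capitals mark the first 6 bases of the intron that CTSL-201 and CTSL-203 splice out and CTSL-202 reads into, up to its stop codon (chr9:87728798-87728866, plus strand).
CTSL-202: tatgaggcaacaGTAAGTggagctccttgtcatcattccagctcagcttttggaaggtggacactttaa
The next sequence is the coding part of the first exon of TIMP2-201, with the start codon in capitals (chr17:78924959-78925088, minus strand). TIMP2-204 starts inside the first intron and lacks all 130 bases.
TIMP2-201: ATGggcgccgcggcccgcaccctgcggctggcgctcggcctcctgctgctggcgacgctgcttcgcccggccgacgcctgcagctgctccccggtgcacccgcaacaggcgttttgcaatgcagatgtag
The last pair gives the ends of 2 PLAUR transcripts that use different last exons, with the stop codon in capitals. The end of PLAUR-203 (chr19:43648890-43649143, minus strand) encodes the tail by which the receptor is attached to its membrane anchor, and PLAUR-202 (chr19:43646457-43646548, minus strand) has a shorter end of its own.
PLAUR-203: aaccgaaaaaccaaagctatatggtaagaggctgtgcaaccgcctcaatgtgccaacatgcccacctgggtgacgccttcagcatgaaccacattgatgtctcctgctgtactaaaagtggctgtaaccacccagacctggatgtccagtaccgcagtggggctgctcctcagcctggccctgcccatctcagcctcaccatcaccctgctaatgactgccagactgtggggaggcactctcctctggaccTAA
PLAUR-202: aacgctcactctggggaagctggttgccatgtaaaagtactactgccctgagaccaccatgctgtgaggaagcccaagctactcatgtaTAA

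Both collagenases stood higher with si-v, while both genes of the urokinase system stood lower. Among the inhibitors TIMP2 stood higher, TIMP1 slightly higher and TIMP3 slightly lower, and the cathepsins were split, with CTSB higher and CTSL lower. In all, 5 of the 9 genes were higher and 4 lower, with a median log2 ratio of 0.20, against a median of 0.00373 over the 11046 genes that reached 1 FPKM in at least 1 library. At 1.5-fold on the log2(FPKM + 1) scale, 2 of the 9 were higher (MMP1 and TIMP2) and 0 were lower. Over the 11046 genes 9.82% were that much higher and 8.91% that much lower, and with 9 genes a count of 2 is not far from that share. No member reached 2-fold, which 2.37% of genes reached upward and 2.49% downward.

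**Figure D1:**
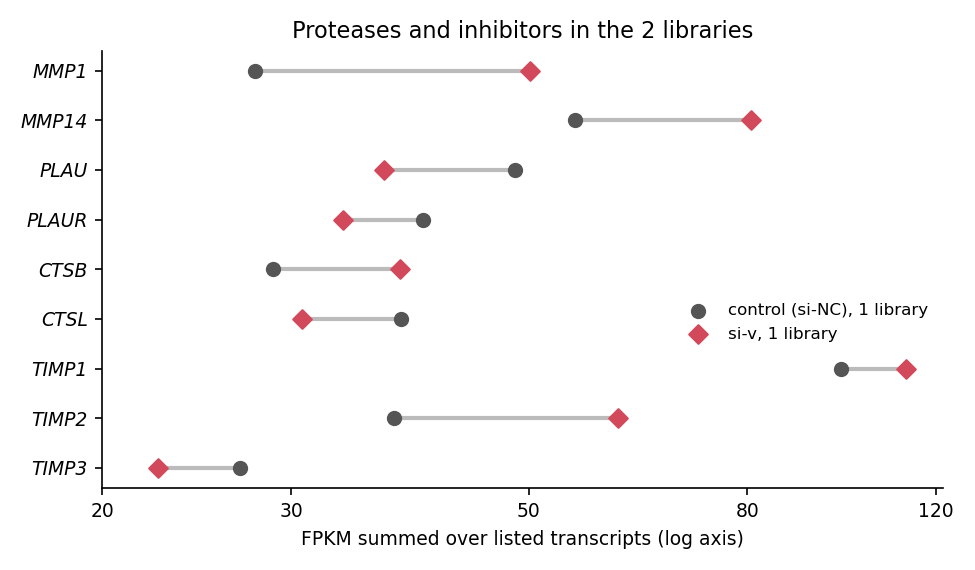
FPKM of each gene (horizontal log axis) in the control library (grey circles) and the si-v library (red diamonds), 1 library each, with a line joining the pair. MMP1, MMP14, CTSB, TIMP1 and TIMP2 lie further right in the si-v library, and TIMP1 is the highest of the 9 genes in both, at 97.9 and 112 FPKM.

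MMP1, the interstitial collagenase that cuts fibrillar collagens, showed the largest ratio of the group. It stood at 27.8 FPKM with si-NC and 50.1 with si-v, a ratio of 1.80 (log2 ratio 0.83). About 600 and 1174 fragments stand behind them and put the log2 ratio of fragments (0.85) between 0.71 and 0.996 as far as counting goes. The log2 ratio of 0.83 lay at percentile 95.7 of the 11046 genes. MMP1 has a single annotated transcript, of 10 exons and 1407 coding bases (GRCh38 chromosome 11, 102789920 to 102798160, minus strand), so no division of reads among its transcripts enters the value. WTAPP1, a pseudogene on the other strand, shares 150 of its 1970 exon bases. As the use of strand in the counting is not known, reads of the pair could not be told apart there.

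MMP1 lies in a cluster of 9 metalloproteinase genes on chromosome 11, of which 3 were listed. Its neighbours were near the floor: MMP3, a stromelysin, stood at 0.382 FPKM with si-NC and 0.644 with si-v, and MMP7, or matrilysin, at 1.01 and 0.798. MMP1 was thus the only gene of the cluster above 2 FPKM among those listed.

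MMP14, which encodes the membrane-anchored collagenase MT1-MMP, was the next highest gene after TIMP1 of the group in both libraries. It stood at 55.3 FPKM with si-NC and 80.6 with si-v, a ratio of 1.46 (log2 ratio 0.54), just under the 1.5-fold line. The counting interval ran from 0.46 to 0.62 on about 2253 and 3551 fragments. Nearly all of it came from the full-length transcript MMP14-201 (chromosome 14, 22836557 to 22849027 for the gene, plus strand), which held 99.5% of the gene's FPKM with si-NC and 99.1% with si-v. MMP14 is rich in G and C (58.9%, against a median of 48.8% over genes), and its log2 ratio was 0.39 once the ratios' trend with GC content and length was taken out.

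TIMP2, the inhibitor that also serves as the bridge between MMP14 and MMP2, stood at 37.5 FPKM with si-NC and 60.5 with si-v (log2 ratio 0.68, percentile 93.1 of genes). The counting interval was 0.61 to 0.80 on about 1462 and 2589 fragments. The difference lay in 1 of its 2 listed transcripts. The full-length TIMP2-201, with 660 coding bases, stood at 24.2 FPKM with si-NC and 47.6 with si-v. TIMP2-204, which lacks the first exon printed above, stood at 13.2 and 12.97. From the full-length transcript alone the log2 ratio was 0.95, and from TIMP2-204 alone it was -0.03. Only 11.9% of the 31-base words of TIMP2-201 and 5.0% of those of TIMP2-204 are absent from the other transcript, so their division rests on few reads. The gene lies on chromosome 17 (78852977 to 78925387, minus strand) and shares 4.51% of its 31-base words with CEP295NL, which was low in both libraries at 0.586 and 0.867 FPKM. AC022966.1, an antisense gene that was not listed, shares 367 of the 5633 exon bases of TIMP2. Reads of that pair cannot be told apart there if strand was not used.

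TIMP1, a secreted inhibitor of most metalloproteinases, was the most abundant gene of the group. It stood at 97.9 FPKM with si-NC and 112 with si-v (log2 ratio 0.20, counting interval 0.05 to 0.30). Its main transcript TIMP1-201 accounted for 91.6 and 99.1 FPKM. A short fragment annotated without complete ends, TIMP1-204, stood at 1.44 and 7.76 FPKM, and without it the gene's log2 ratio was 0.12. Corrected in the same way for GC content and length, the ratio of TIMP1 was 0.012. TIMP1 lies on chromosome X (47582313 to 47586789, plus strand) inside SYN1, which is on the other strand and was listed at 0 in both libraries.

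TIMP3, the inhibitor that binds the extracellular matrix, was the lowest gene of the group with si-v. It stood at 26.9 FPKM with si-NC and 22.6 with si-v (log2 ratio -0.24, counting interval -0.37 to -0.14 on about 1358 and 1235 fragments). Like MMP1 it has 1 annotated transcript, with 633 coding bases (chromosome 22, 32801701 to 32863043, plus strand), and its value does not depend on a division among transcripts. The 3 inhibitor genes thus lay on both sides of equality. Summed, the collagenases MMP1 and MMP14 stood at 83.1 FPKM against 162 for the 3 inhibitors with si-NC, a ratio of 0.512. In the si-v library they stood at 131 against 196, a ratio of 0.669. For MMP14 over TIMP2 alone the ratio went the other way, from 1.48 with si-NC to 1.33 with si-v.

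**Figure D2:**
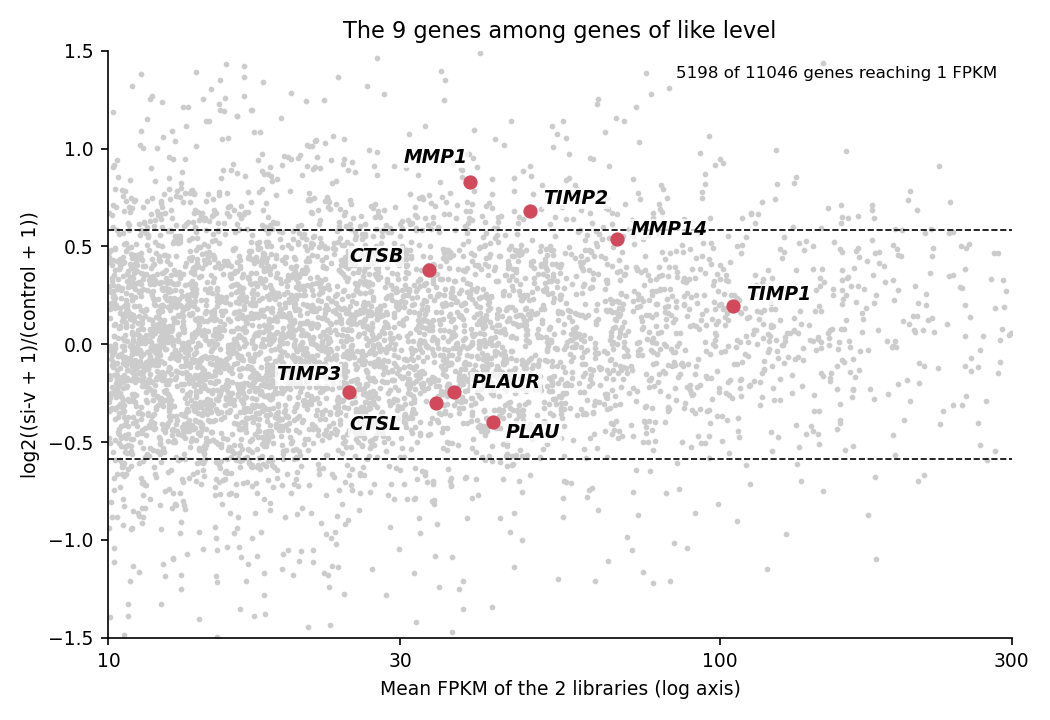
Log2 ratio (vertical axis) against mean FPKM of both libraries (horizontal log axis) for the 9 genes (red) and for other genes (grey); dashed lines mark 1.5-fold. The window shows 5198 of the 11046 genes reaching 1 FPKM, and MMP1 and TIMP2 are the members above the upper line, inside a cloud of genes that extends beyond them.

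The urokinase gene PLAU and its receptor gene PLAUR stood lower together. PLAU was at 48.5 FPKM with si-NC and 36.6 with si-v (log2 ratio -0.40, counting interval -0.52 to -0.28 on about 1223 and 1004 fragments). Its main transcript PLAU-201 stood at 43.7 and 34.8 FPKM. PLAU-202, with 1242 coding bases against 1293 in PLAU-201, stood at 3.53 and 1.24, and the partial transcript PLAU-203 at 1.25 and 0.537. All 3 transcripts were lower with si-v, although the interval of PLAU-203, on 6 and 3 fragments, includes equality. PLAU lies on chromosome 10 (73909177 to 73917497, plus strand), where C10orf55 on the other strand shares 916 of its 2950 exon bases, so reads from the opposite strand cannot be told apart if strand was not used.

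PLAUR, the surface receptor of urokinase, stood at 39.8 FPKM with si-NC and 33.5 with si-v (log2 ratio -0.24, counting interval -0.42 to -0.09). Its 2 main transcripts went in opposite directions. PLAUR-203, which ends in the exon for the membrane anchor, stood at 21.4 FPKM with si-NC and 13.6 with si-v. PLAUR-202, with the other last exon, stood at 10.8 and 14.2. The counting interval of the log2 ratio was -0.89 to -0.42 for PLAUR-203 and 0.08 to 0.70 for PLAUR-202. As shares of the gene's FPKM, PLAUR-203 took 53.8% with si-NC and 40.7% with si-v, and PLAUR-202 took 27.2% and 42.2%. PLAUR-201, which ends at the same base as PLAUR-203, was level at 5.35 and 5.15 FPKM. Of the 31-base words of PLAUR-203, 0% are absent from the gene's other listed transcripts. Its value thus rests on how shared reads were divided, and the printed end tells it from PLAUR-202 only. Read from PLAUR-203 only, the gene's log2 ratio was -0.62, past 1.5-fold, and without PLAUR-203 it was 0.11, so the sign turns with this transcript too. The gene lies on chromosome 19 (43646095 to 43670547, minus strand), and 7 of its 11 annotated coding transcripts were listed.

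The cathepsin gene CTSL, on chromosome 9 (87725519 to 87731393, plus strand), encodes a lysosomal cysteine protease. It stood at 38.0 FPKM with si-NC and 30.7 with si-v (log2 ratio -0.30). This direction came from 1 transcript. CTSL-202, the short form that runs into the intron and stops there, stood at 12.8 FPKM with si-NC and 1.38 with si-v, on about 131 and 15 fragments (log2 ratio from -4.12 to -2.47 by counting). The full-length CTSL-201 stood at 10.2 and 15.0, and the full-length CTSL-203, with a longer first exon, at 15.0 and 14.3. Without CTSL-202 the gene stood at 25.2 FPKM with si-NC and 29.3 with si-v, a log2 ratio of 0.21, so the sign turns with this transcript. Counted as fragments per gene, in which the short transcript weighs less, the log2 ratio of CTSL had a counting interval of -0.29 to 0.02, which includes equality. Of the gene's 31-base words, 4.79% also occur in transcripts of 10 other genes, with the largest share, 2.20%, in the pseudogene CTSL3P.

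CTSB, on chromosome 8, encodes the other lysosomal cysteine protease of the group. It stood at 28.9 FPKM with si-NC and 38.0 with si-v (log2 ratio 0.38, counting interval 0.28 to 0.56). It was the gene with the most listed transcripts, 11 of 23 annotated coding ones, but 1 of them, CTSB-228, carried 86.9% of the FPKM with si-NC and 77.3% with si-v. CTSB-228 stood at 25.1 and 29.4 FPKM. CTSB-202, which encodes the same 1017 coding bases in a longer messenger RNA, stood at 2.91 and 5.89. Read from CTSB-228 only, the gene's log2 ratio was 0.22, and for the whole gene it was 0.26 once the trend with GC content and length was taken out. Of the 31-base words of CTSB-228, 0% are absent from the gene's other listed transcripts, so its value too rests on how shared reads were divided. Of the gene's 31-base words, 5.67% also occur in transcripts of 3320 other genes.

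**Figure D3:**
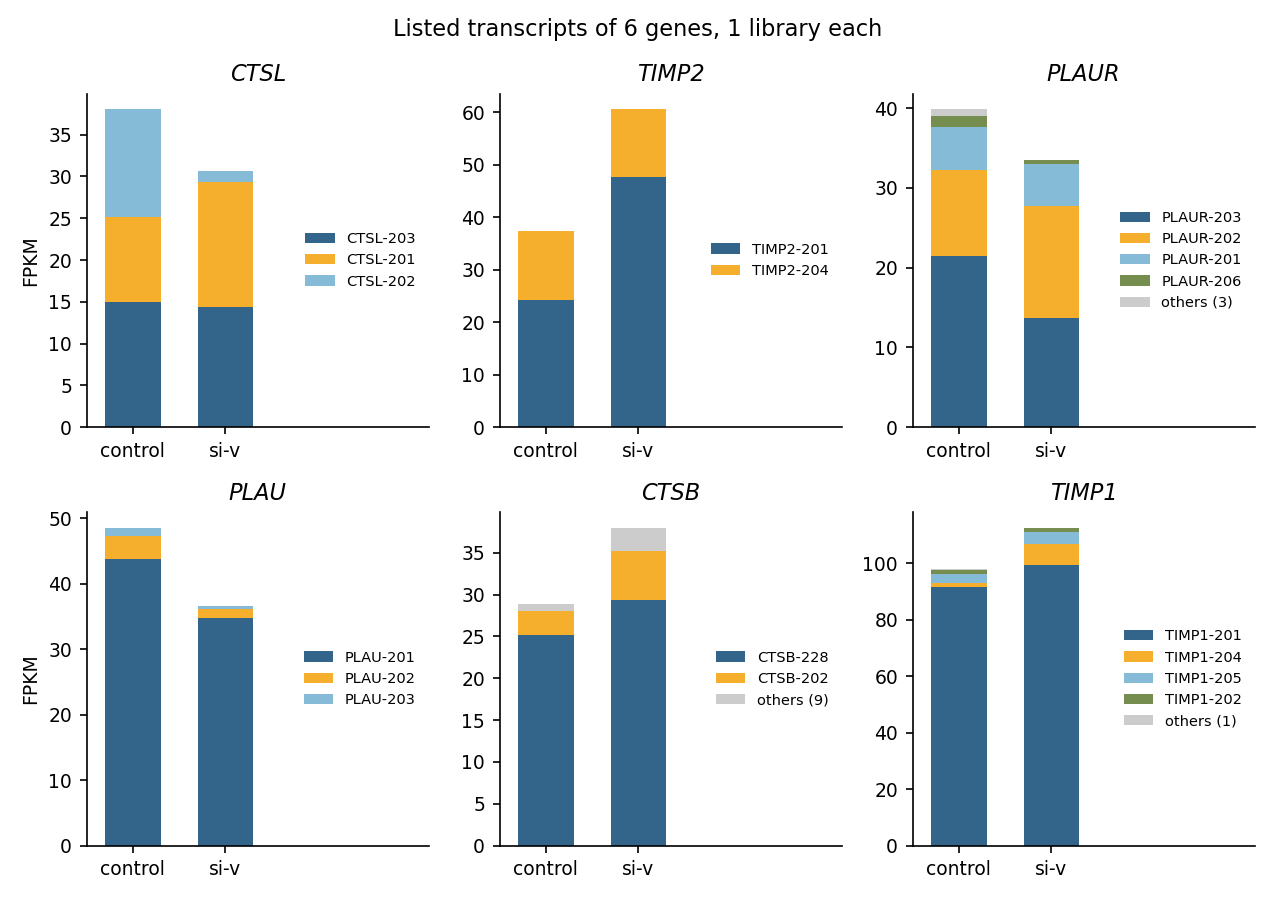
FPKM of the listed transcripts (stacked colours, vertical axis from 0) of 6 genes in the control and si-v libraries, 1 library each; transcripts under 1 FPKM in both are joined as others. CTSL-202 stands at 12.8 and 1.38 FPKM, TIMP2-201 at 24.2 and 47.6 beside a level TIMP2-204, and PLAUR-203 and PLAUR-202 differ in opposite directions.

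Shifts of this size between transcripts were common in the table. Among 5779 genes with at least 2 listed transcripts and 5 FPKM in both libraries, 28.3% had a transcript whose share of the gene moved by 20 percentage points or more, and the median largest shift was 10.3 points. The largest shift was 29.3 points in CTSL (percentile 82.1), 15.0 in PLAUR (percentile 62.6) and 13.9 in TIMP2 (percentile 60.1). It was 9.58 points in CTSB, 5.43 in TIMP1, 4.98 in PLAU and 0.442 in MMP14. CTSL was therefore the only one of these 7 genes past 20 points. As with PLAUR-203 and CTSB-228, 0% of the 31-base words of CTSL-201 and TIMP1-204 are absent from their gene's other listed transcripts. For PLAU-201 the figure is 0.04%. The values of these transcripts also rest on how shared reads were divided.

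Ordered by level, the control library ran from TIMP1 through MMP14, PLAU, PLAUR, CTSL, TIMP2, CTSB and MMP1 to TIMP3. In the si-v library TIMP1 and MMP14 again came first, followed by TIMP2, MMP1, CTSB, PLAU, PLAUR, CTSL and TIMP3. Whether neighbours in these orders differ beyond the spread between cultures cannot be said with 1 library each. All 9 genes were well expressed, from percentile 78.7 of genes upward with si-NC and from percentile 74.2 upward with si-v. Because the members share 2 libraries, no gene can be named as most like them in pattern.

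The other matrix metalloproteinases were few and low in these cells. Of 21 other matrix metalloproteinases, 6 were listed and 4 reached 1 FPKM. MMP2, the gelatinase that MMP14 activates, was listed at 0 with si-NC and at 0.0336 with si-v. MMP19 stood at 1.93 FPKM with si-NC and 0.336 with si-v (log2 ratio -1.13, on about 47 and 9 fragments). It was the only one past 1.5-fold, which here and below is on the log2(FPKM + 1) scale. Over all genes tested 9.82% were that much higher and 8.91% lower, the shares to set beside this count and those of the next lists. MMP24, a membrane-type enzyme, stood at 0.652 and 1.06, and MMP15, another, at 1.04 and 1.02. The log2 ratio of MMP24 was 0.32, and 0.62, past 1.5-fold, with 0.1 FPKM added instead of 1.

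Among 8 regulators of metalloproteinases reaching 1 FPKM, 0 passed 1.5-fold on the log2(FPKM + 1) scale, and the median log2 ratio was 0.04. RECK, a membrane-anchored inhibitor of MMP14 and other metalloproteinases, stood at 4.01 FPKM with si-NC and 2.37 with si-v (-0.57), close under the line. With 0.1 FPKM added instead of 1, RECK was past it, at -0.74. CAV1, which encodes the main coat protein of caveolae, stood at 118 and 83.7 (-0.49). CD63, a tetraspanin that binds TIMP1, stood at 93.2 and 107.5 (0.20), and the Kunitz inhibitor gene TFPI2 at 15.4 and 17.9 (0.20).

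The ADAM and ADAMTS families, whose members shed surface proteins or cut matrix proteoglycans, had 10 genes past the filter. Of these 1 was 1.5-fold higher and 1 lower, close to the shares over all genes tested (9.82% higher and 8.91% lower). ADAM15 stood at 6.80 FPKM with si-NC and 16.3 with si-v (log2 ratio 1.15), mostly in the transcript ADAM15-228, at 2.16 and 10.2, without which the log2 ratio was 0.33. ADAMTS6 stood at 6.43 and 3.68 (-0.67). ADAM19 was at 6.16 and 9.54 (0.56), and ADAM10, a major sheddase, at 21.4 and 15.0 (-0.49). With 0.1 FPKM added instead of 1, ADAM19 was past 1.5-fold, at 0.62. The family had a median log2 ratio of -0.13.

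In the rest of plasminogen activation, 3 of the 10 genes followed were 1.5-fold lower and 0 higher, with a median log2 ratio of -0.17, beside 8.91% lower and 9.82% higher over all genes tested. PLAT, the tissue-type activator, stood at 32.2 FPKM with si-NC and 16.6 with si-v (-0.92). In FPKM this difference lay in PLAT-205, which stood at 21.9 with si-NC and was listed at 0 with si-v. PLAT-202 went the other way, from 3.60 to 12.7. Without PLAT-205, PLAT stood at 10.2 and 16.6 FPKM (0.64), and the list then had 2 genes lower, 1 higher and a median of -0.09. Leaving PLAT-205 out drops reads from the si-NC library only, and how reads were divided between these transcripts was not tested. Counted as fragments per gene, PLAT was lower, at about 722 and 464 (log2 ratio -0.75, counting interval -0.93 to -0.58). PLGRKT, a plasminogen receptor, stood at 10.3 and 5.84 (-0.73), and S100A10, which with annexin A2 binds plasminogen at the surface, at 329 and 218 (-0.59). S100A10 was named after its value was seen, as the remaining gene of the 3. ENO1, a glycolytic enzyme that also binds plasminogen, stood at 474 and 708 (0.58), just under the line, and SERPINB8 at 2.38 and 3.93 (0.55). With 0.1 FPKM added instead of 1, SERPINB8 was past the line, at 0.70. SERPINB6 stood at 46.1 and 61.6 (0.41), and like S100A10 it was named after its value was seen.

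Of 5 membrane serine proteinases and their inhibitors past the filter, 0 passed 1.5-fold in either direction. SPINT2, a Kunitz inhibitor of matriptase and related enzymes, stood at 33.3 FPKM with si-NC and 43.4 with si-v (log2 ratio 0.37, but -0.66 for its most abundant transcript). HTRA1, a secreted serine protease, stood at 13.5 and 16.6 (0.28), SPINT1 at 1.59 and 1.39, and DPP4 at 1.73 and 1.75.

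Of 11 other cathepsins and legumain past the filter, 2 were 1.5-fold lower and 0 higher, with a median log2 ratio of -0.16. Over all genes tested 8.91% were that much lower and 9.82% higher, and with 11 genes a count of 2 is not far from that share. CTSW stood at 7.52 FPKM with si-NC and 2.65 with si-v (-1.22), and CTSS at 3.62 and 1.32 (-0.99). Both are best known from leukocytes. Of the 7 leukocyte marker genes PTPRC, CD3E, ITGAM, TYROBP, LAPTM5, CD68 and CD14, the last 3 were listed. LAPTM5 stood at 23.9 and 5.90 FPKM, CD68 at 47.8 and 55.0, and CD14 at 0.484 and 0.367. The summed level of the 3 was 72.2 FPKM with si-NC and 61.3 with si-v, and their part in the cathepsin values was not tested. LGMN, or legumain, which processes cathepsins, stood at 7.87 and 10.9 (0.42), and CTSH at 4.39 and 6.12 (0.40). Without LGMN-202 the log2 ratio of LGMN was -0.68, but this keeps LGMN-216, which stood at 4.78 with si-NC and 0 with si-v. Counted as fragments per gene, LGMN was higher with si-v (log2 ratio 0.51, counting interval 0.23 to 0.81).

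Cystatins, the inhibitors of CTSB and CTSL, had 6 genes past the filter and 0 past 1.5-fold, with a median log2 ratio of -0.21. CSTB, the cytosolic stefin B, stood at 61.6 FPKM with si-NC and 49.8 with si-v (-0.30). CST1, CST4 and CST6 lay between 0.519 and 1.09 FPKM in both libraries, on 5 to 9 fragments. With 0.1 FPKM added instead of 1, CST1 was past 1.5-fold lower, at -0.92. The abundant secreted cystatin CST3 stood at 123 and 113 FPKM, so that its ratio to CTSB and CTSL together was 1.84 with si-NC and 1.64 with si-v.

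Genes of invadopodia, the actin-based protrusions at which MMP14 is delivered to the matrix, stood higher in 10 of 13 cases. The median log2 ratio was 0.24, and over all genes tested 5568 of 11046 stood higher. Among the 10, SRC (0.009) and VAMP7 (0.04) lay close to equality. The counting intervals of SRC, VAMP7, EXOC4, EXOC7 and NCK1 include equality, as does that of SH3PXD2B among the lower genes. RAB7A had a log2 ratio of 0.38 by FPKM but 0.08 by fragments. At 1.5-fold on the log2(FPKM + 1) scale 1 gene was higher, beside 9.82% of all genes tested. This was CTTN, which encodes the actin regulator cortactin, at 68.1 FPKM with si-NC and 120.8 with si-v (0.82). The scaffold gene SH3PXD2A (TKS5) stood at 3.40 and 5.38 (0.54, but 0.65, past 1.5-fold, with 0.1 FPKM added instead of 1). WIPF1, at 19.2 and 14.6 (-0.38), and WASL, at 19.7 and 15.2 (-0.35), which encode partners in actin nucleation, lay the other way.

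**Figure D4:**
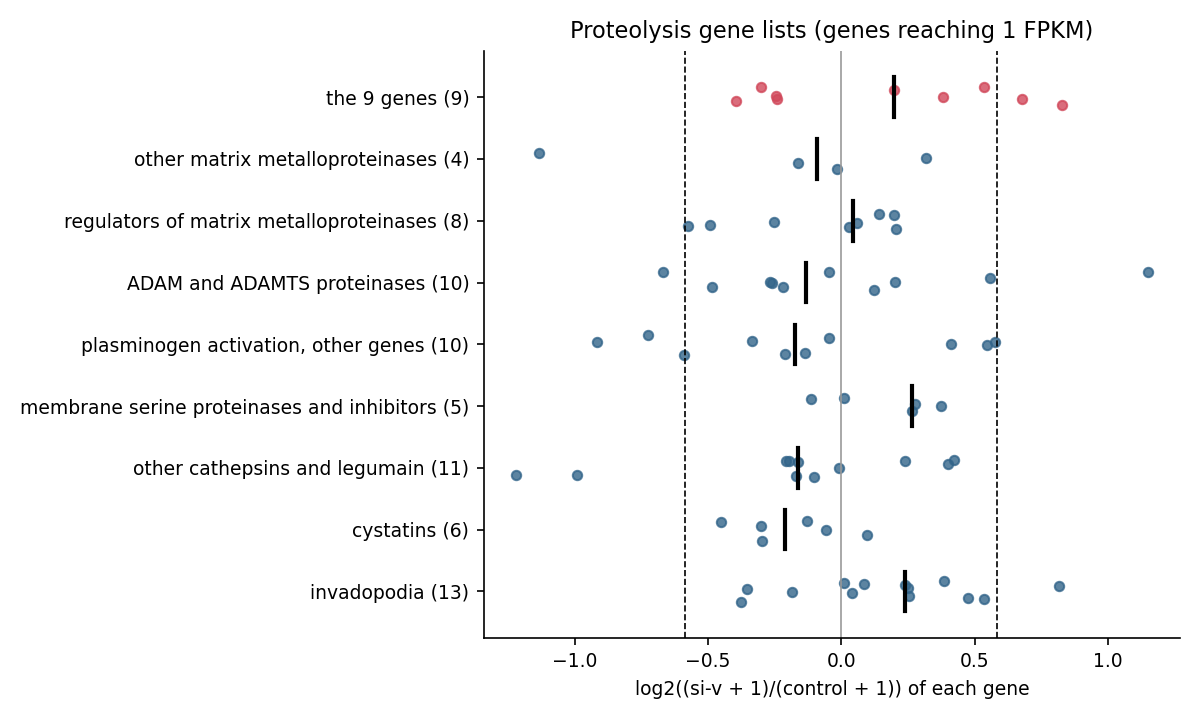
Log2 ratio of each gene reaching 1 FPKM (points, horizontal axis) in the 9 genes and 8 related lists, with the number of genes in brackets, the median as a black bar and 1.5-fold as dashed lines. MMP1 and TIMP2 lie past the upper line, and 3 genes of plasminogen activation lie past the lower one, among them PLAT. Without PLAT-205 PLAT is higher (0.64), whereas as fragments per gene, not drawn here, PLAT is lower (-0.75).

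Among reference genes, ACTB stood at 96.1 FPKM with si-NC and 93.9 with si-v, whereas GAPDH stood at 313 and 219 (log2 ratio -0.51), a difference close in size to that of MMP14 and opposite in sign. THAP7, the coding neighbour of the target, stood at 1.5 and 1.60 FPKM on about 19 and 22 fragments.

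**Figure D5:**
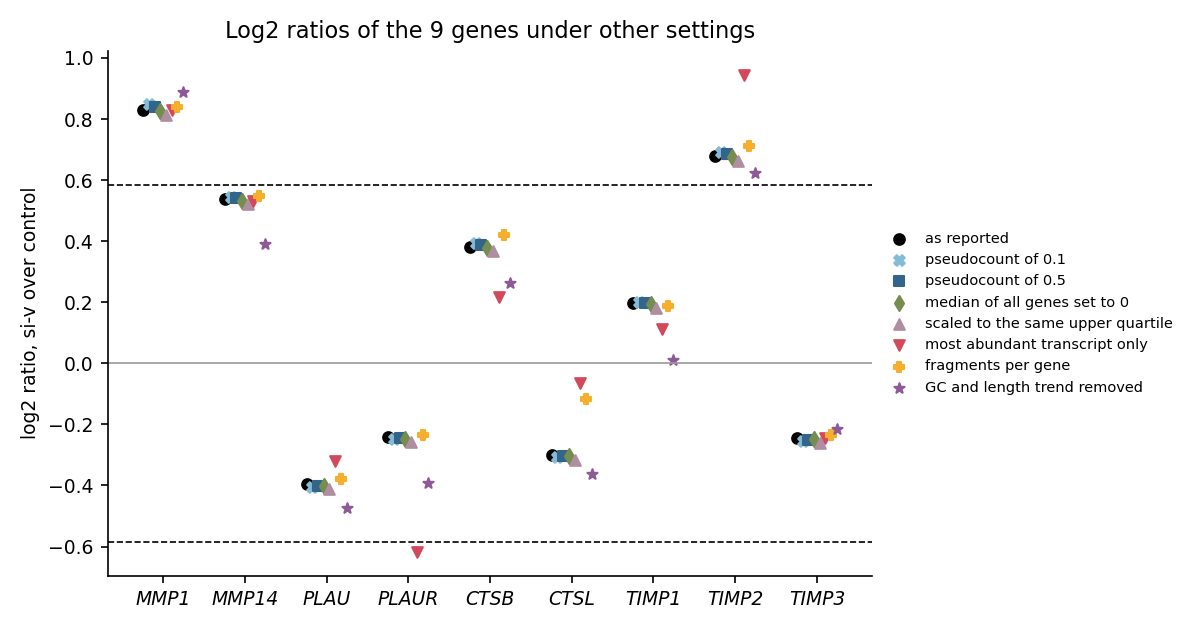
Log2 ratio (vertical axis) of each of the 9 genes as reported (black) and under 7 other settings (coloured markers), with 1.5-fold as dashed lines. Each gene keeps its side of 0 under these 7 settings, MMP1 and TIMP2 stay above the upper line, and PLAUR passes the lower line when read from its most abundant transcript.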

How the data were processed

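The authors' deposited table gives an FPKM value per transcript for each of the 2 libraries. Its header names no unit, and FPKM was read from the values. Cutadapt, HISAT2 2.0.5 and StringTie on hg19 are named, per the submitters' processing notes. The sources used here state no setting, annotation, strand use or filter. Of 39605 transcripts, 99.5% matched GENCODE release 29 by ID without version, and FPKM was summed per gene (Python 3.11.15, pandas 2.3.3). Log2 ratios used a pseudocount of 1 FPKM, which understates differences of low genes, and a filter of 1 FPKM in at least 1 library. Fragments were estimated as FPKM times length over the worth of 1 fragment, taken from the peak of low values in genes with 1 listed transcript (91.2 and 84.1 FPKM times bases). They are approximate, and intervals ignore the sharing out of reads between transcripts. Steps were tested on simulated data. The members and lists were chosen with earlier results of these data known. Of the genes of these lists, 2 are not reported here and enter no count. The text names all members, the 2 highest and 2 lowest ratios of each of 8 lists, and ACTB, GAPDH and THAP7; other genes were named after their values were seen. Alternatives were pseudocounts of 0.1 and 0.5, median centring, upper-quartile scaling, the most abundant transcript, fragments per gene, removal of the GC and length trend, 2-fold, and filters.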

Additional observations from a re-analysis of the deposited data

How the results depend on the processing

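Each of the 9 genes kept the direction of its log2 ratio under all 7 other settings of scale, pseudocount and summing. Not all of these could turn a sign. A pseudocount cannot, and the shifts of median centring (0.00373) and upper-quartile scaling (-0.016) were smaller than the ratio of any of the 9. For MMP1 and TIMP3, with 1 transcript, the most abundant transcript gives the same value. Leaving out single transcripts, chosen after seeing the data, turned some signs: CTSL was 0.21 without CTSL-202 instead of -0.30, PLAUR 0.11 without PLAUR-203 instead of -0.24, PLAT 0.64 without PLAT-205 instead of -0.92 and LGMN -0.68 without LGMN-202 instead of 0.42. ADAM15 was 0.33 without ADAM15-228 instead of 1.15. For PLAT and LGMN another transcript differed in the opposite direction, so the sign after leaving a transcript out depends on how reads were divided. By the log2 ratio of fragments per gene, PLAT was lower (-0.75) and LGMN higher (0.51), each with a counting interval that excludes equality. The number of members 1.5-fold higher was 2 under all 7 settings, and 0 at 2-fold. The number lower was 0, except 1 (PLAUR) with the most abundant transcript only. The median log2 ratio of members was 0.20, and 0.012 after correction for GC content and length. Of the other 35 genes named by rule, 31 kept their direction under all 7; SPINT1, SPINT2, CST6 and THAP7 did not. The share of all genes 1.5-fold higher was 8.77% without a filter, 9.93% at 5 FPKM and, chosen after seeing the data, 10.5% at 20 FPKM. No paired analysis was possible because each group has 1 library. Depth gave each of the 9 genes at least 565 fragments in each library; the spread between cultures is not known.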

Other observations

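Among the related genes, some differed mainly in which transcript was listed as expressed. For PLAT the most abundant transcript with si-NC, PLAT-205, stood at 21.9 FPKM and was listed at 0 with si-v, while PLAT-202 stood at 3.60 and 12.7. For the legumain gene, LGMN-216 stood at 4.78 FPKM with si-NC and was listed at 0 with si-v, and LGMN-202 stood at 1.997 and 7.59. For SPINT2, SPINT2-201 stood at 25.6 and 15.8 FPKM and SPINT2-204 at 3.75 and 24.4. An exact 0 can be a failed estimate in a table of this kind, and how the reads were divided among these transcripts was not tested. In CTTN both main transcripts lay on the same side: CTTN-201 stood at 60.1 and 106 FPKM and CTTN-203 at 6.73 and 11.6.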
